A study of Sus scrofa with 2 samples.

Results

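RNA-seq of the pig stria vascularis (SV), dissected with the lateral wall of the cochlea, listed 2300 transcribed features that carry no Ensembl identifier, out of 27622 features in all. They were chosen by their identifiers, which begin with a fixed prefix and a running number in the deposited table (Novel01283, for example), and the other 25322 features have Ensembl identifiers. These 2300 are called unannotated features here. One library came from a MITF R/r pig, a carrier of the recessive albino allele r of Rongchang pigs, and 1 library came from a MITF r/r pig, in which both copies of MITF carry that allele with its small insertions upstream of the start of the melanocyte transcript MITF-M. The sample labels give the age as postnatal day 1, whereas the paper describes the SVs as embryonic. Both libraries share the breed, the tissue and the method, no other treatment is named, and since each genotype is 1 library, animal, dissection and genotype cannot be told apart. They are called het (R/r) and hom (r/r) here, after their sample names.

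MITF is a transcription factor that melanocytes require, and the intermediate cells of the SV are melanocytes that take part in the ion transport behind the endocochlear potential. RNA-seq finds transcription wherever reads pile up on the genome, also where a gene annotation has no entry. In mammals such unannotated transcripts are known to include long non-coding RNAs, exons and ends of known genes that an early annotation missed, and genes that an assembly had placed poorly. The deposited table gives the unannotated features no position, no description and no symbol, so their place in the genome, their neighbours and their sequences were not analysed here, and no function is assigned to any of them below.

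RPKM scales the reads of a feature to its exon length and to the depth of the library. Its sum over features can differ between libraries, so that other scalings are given further below. The reads behind the RPKM values were worked out from the steps between low values, with library totals of 15829244 (het) and 14258672 (hom). A single read on a feature of 1 kb is worth 0.0632 RPKM in het and 0.0701 RPKM in hom. The reads and the exon length given for a feature are the smallest whole numbers that yield its RPKM values, and the true numbers can be a common multiple of them. MITF itself (ENSSSCG00000011513) was present in both libraries, at 51.7 RPKM in het and 37.8 RPKM in hom. These values are for the whole gene and do not show MITF-M, which by the paper gene RPKM cannot separate from the other transcripts. From its own exon counts the paper reports the M exon as much lower in r/r, and it did not detect MITF-M in r/r cochleae. Markers of the lateral wall were also present in both, with COCH of fibrocytes at 6826 and 4914 RPKM and CLDN11 of basal cells at 840.3 and 706 RPKM. The 7 markers of intermediate cells and melanocytes that were found summed to 245 RPKM in het and 2.07 RPKM in hom, where MLANA was listed at 0, and 5 of them were at least 2-fold lower. DCT alone had 171 and 1.19 RPKM. The paper lists other markers of these cells, such as KIT and MUM1, as still expressed in r/r. It describes most of them as not significantly lower, while its value for Kir1.2 was lower in r/r. The 3 markers of marginal cells that were found summed to 1263 and 826 RPKM, and the 5 bone markers summed to 629 and 430.1 RPKM, with 2 of them at least 2-fold lower in hom. Of the bone markers SPP1 alone went the other way, with 86.4 RPKM in het and 104 RPKM in hom. The 2 blood markers found summed to 1681 and 1414 RPKM, and the 3 muscle markers, of which ACTA1 was listed at 0 in het and MYH1 was at least 2-fold lower in hom (2.98 and 0.445 RPKM), to 8.06 and 4.31 RPKM. Fewer cells of a type and less RNA per cell cannot be told apart from these values alone. From electron microscopy of prenatal SVs and retained markers, the paper concludes that intermediate cells were still there in r/r embryos and were lost around birth. It attributes the expression differences to the mutation. The part of such cells in the values of the unannotated features was not tested.

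Unannotated features were transcribed at low to moderate levels in both SVs. Their median was 4.22 RPKM in het and 4.05 RPKM in hom. The features between the 25th and 75th percentiles lay between 1.72 and 11.2 RPKM in het and between 1.68 and 10.9 RPKM in hom. The 95th percentiles were 48.9 and 48.6 RPKM, and the highest values were 1808 and 1435 RPKM, both of Novel01283. An RPKM value of at least 1 was reached by 2025 unannotated features (88.0%) in het and 2014 (87.6%) in hom. A value of at least 10 was reached by 638 (27.7%) and 626 (27.2%), and a value of at least 100 by 41 (1.78%) and 43 (1.87%).

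The Ensembl features spread further in both directions. Among them 70.6% were above 0 in het and 70.2% in hom, against 99.0% and 99.1% of the unannotated features. Among features above 0, the median of the Ensembl features was higher, at 7.24 RPKM in het and 7.14 RPKM in hom, against 4.35 and 4.13 RPKM for the unannotated features. Of all Ensembl features, 3.24% and 3.28% had at least 100 RPKM. Unannotated features received 616091 reads in het and 558183 reads in hom, which was 4.36% and 4.38% of the reads found on all features. How the unannotated features were defined is not given in the sources used here, and a set assembled from these same reads would be above 0 by construction, so that the share above 0 is a description of the table.

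**Figure D1:**
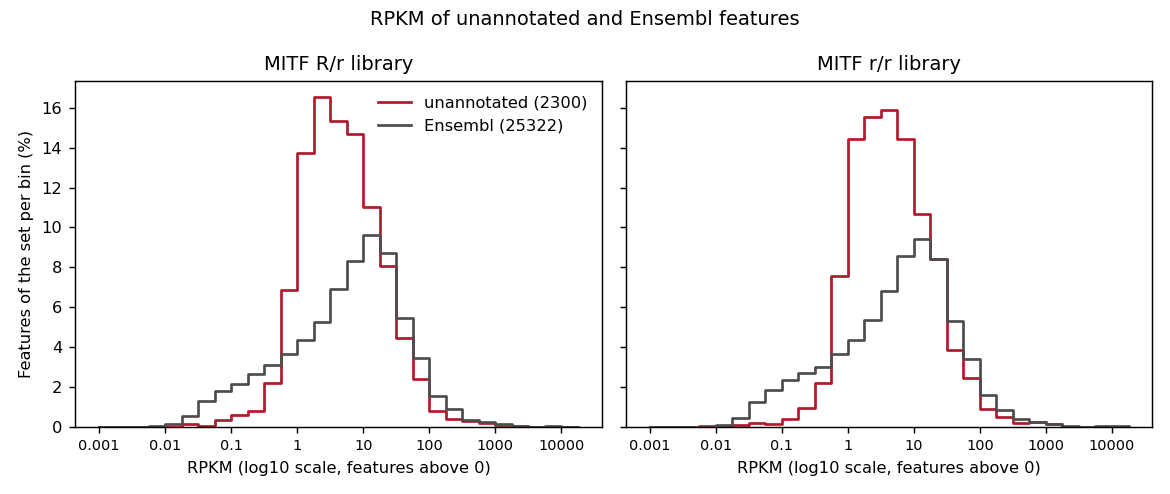
Share of the 2300 unannotated features and of the 25322 Ensembl features (vertical axis, percent of the set per bin of 0.25 log10 units) by RPKM value (horizontal axis, log10 scale), het (R/r) on the left and hom (r/r) on the right. Features listed at 0 are not drawn. The unannotated features drawn form a single narrow peak with medians of 4.35 and 4.13 RPKM, and the Ensembl features reach further to the left and to the right.

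Exon lengths worked out from the values were shorter for unannotated features. Their median was 824 bases over 2286 features with reads, against 1457 bases over 18576 Ensembl features, and the 25th and 75th percentiles were 388 and 1738 bases. At least 2000 bases were found for 487 unannotated features (21.3%) and for 35.4% of the Ensembl features, and 213 (9.32%) had under 200 bases, against 5.03%. The longest was Novel01109 with 14912 bases, a feature chosen after its value was seen. These lengths are smallest whole lengths, so that a true length can be longer by a whole factor. Shorter exon models collect fewer reads at the same RPKM. The median unannotated feature with reads had 97 reads over both libraries, and the median Ensembl feature had 269.

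**Figure D2:**
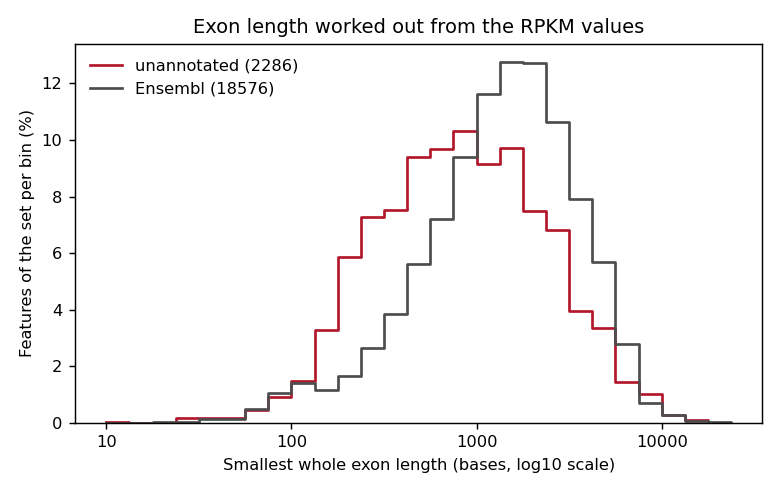
Smallest whole exon length (horizontal axis, bases on a log10 scale) of the 2286 unannotated and 18576 Ensembl features with reads, as percent of each set per bin (vertical axis, equal bins in log10 length). The unannotated features are shifted to shorter lengths, with medians of 824 and 1457 bases.

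Nearly all unannotated features were detected in both libraries. A value above 0 was listed in both for 2271 features (98.7%), in het alone for 7, in hom alone for 8, and in neither for 14. Among Ensembl features 67.4% were above 0 in both libraries and 1500 (5.92%) in 1 of them, against 15 (0.652%) of the unannotated features. At a threshold of 1 RPKM the order was the other way round, with 209 unannotated features (9.09%) and 678 Ensembl features (2.68%) past it in 1 library alone. Of the 15 unannotated features above 0 in 1 library, 13 had at most 4 reads by their smallest whole numbers, which leaves Novel00795 and Novel00721.

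Novel00795 had 7.58 RPKM from 233 reads on 1942 bases in het and was listed at 0 in hom. A count of 0 allows up to 3 reads there, or 0.108 RPKM, and the value in het was 70.0 times that. Such folds leave out the counting error of the reads that were seen, so that they are not lower limits. By smallest whole numbers, no other unannotated feature listed at 0 in 1 library had over 7 reads in the other. Novel00721 was listed at 0 in het and had 1.30 RPKM from 7 reads in hom. This was 2.59 times the level of the 3 reads that a count of 0 allows. Novel01661 had 2.60 RPKM in hom from 1 read, or a multiple of it, on a smallest length of 27 bases and was listed at 0 in het, and no fold is given for it. Novel00692 had 0.954 RPKM from 4 reads in het and was listed at 0 in hom. There 3 reads would be 0.794 RPKM, and the value in het was 1.20 times that. The next of the features in het alone were Novel01762 (0.625 RPKM), Novel01451 (0.178 RPKM) and Novel01028 (0.152 RPKM), with 1, 3 and 1 reads, and the next in hom alone were Novel00092 (0.468 RPKM), Novel01168 (0.246 RPKM) and Novel01645 (0.218 RPKM), with 1, 3 and 1 reads. All these reads are smallest whole numbers, and the true ones can be a multiple of them. If they are the true numbers, a difference between the libraries was not detectable for the features with at most 4 reads.

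The unannotated features with the highest mean RPKM had smallest lengths of 111 to 1218 bases and were all under 2-fold apart. Novel01283 had 1808 RPKM in het and 1435 RPKM in hom, from 5809 and 4153 reads, and ranked 24 among all 27622 features by mean RPKM. Its log2 ratio, hom over het, was -0.33 (95% counting interval -0.39 to -0.28). The features with the next running numbers were also among the 10 highest. Novel01284 had 1267 and 1029 RPKM in het and hom, a log2 ratio of -0.30 (-0.34 to -0.26). Novel01285 had 604 and 538 RPKM, a log2 ratio of -0.17 (-0.21 to -0.13). These 3 features were all slightly lower in hom, each with an interval below 0 and short of 2-fold. What the running numbers stand for is not stated, so that a shared locus cannot be read from them.

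Novel02000 had 1268 and 1296 RPKM in het and hom, and Novel01998 had 693 and 675 RPKM. Novel01983 had 779 and 826 RPKM. The intervals of these 3 features held no change. The remaining members of the 10 highest were higher in hom. Novel02136 had 799.8 and 983 RPKM, a log2 ratio of 0.30 (95% counting interval 0.22 to 0.37). Novel01893 had 386 and 448 RPKM, with a log2 ratio of 0.21 (0.11 to 0.32). Novel02115 had 524 and 755 RPKM (log2 ratio 0.53, interval 0.41 to 0.65). Novel02196 had 498 and 853 RPKM, and its log2 ratio of 0.78 (0.68 to 0.87) was the highest of the 10. Of the 10 features 0 were at least 2-fold apart, 4 were lower and 6 higher in hom, and 7 had an interval that did not hold 0. Together they took 7.93% of the reads on unannotated features in het and 7.45% in hom. By number of reads rather than by level the first was Novel00089, chosen after its value was seen, with 26797 and 24820 reads on 4461 bases and 379 and 390.2 RPKM.

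To ask which unannotated features differed between the libraries, RPKM in hom was divided by RPKM in het, with no pseudocount, and the log2 ratio was taken. Features had to be above 0 in both libraries and to reach 1 RPKM in het, hom or both. This left 2121 of the 2300 unannotated features and 14210 Ensembl features. The unannotated features were centred close to no change. Their median log2 ratio was -0.04 (0.01 when the libraries were scaled by their medians), against -0.02 for the Ensembl features and -0.02 for all 16331 features compared. The spread of the unannotated features was wider, with the 25th and 75th percentiles at -0.28 and 0.20 against -0.17 and 0.12 for the Ensembl features, and the 5th and 95th percentiles at -0.91 and 0.89 against -0.61 and 0.49.

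A difference of at least 2-fold was seen for 169 unannotated features (7.97%), 84 lower and 85 higher in hom. The background over all features compared was 3.99% in either direction, 2.20% lower and 1.78% higher, and over Ensembl features alone 482 (3.39%) differed by as much, of which 276 were lower and 206 higher. Of the 169 and 482 features, 68 and 238 had at least 1 RPKM in both libraries. The others passed the minimum only through the library in which they were higher, so that these shares are descriptions of the features. Among the 3764 Ensembl features without a symbol in the deposited table, which had a median of 245 reads, the share was 5.39%. A difference of at least 4-fold was seen for 14 unannotated features that were lower and 15 that were higher, 1.37% together against 0.711% of the Ensembl features, and over all features compared 0.447% were lower and 0.349% higher. Nearest to the 2-fold threshold were Novel01914 (2.002-fold lower, with 20 and 9 reads) and Novel00853 (2.004-fold higher, with 36 and 65 reads) just inside, and Novel00861 (1.991-fold lower, with 42 and 19 reads) and Novel00655 (1.998-fold higher, with 15 and 27 reads) just outside.

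The share at least 2-fold apart followed the number of reads. The 169 features had a median of 28 reads (het and hom summed), while all unannotated features compared had a median of 109, and 130 of the 169 had under 50 reads. Among unannotated features with 1 to 19 reads 36.8% were at least 2-fold apart, with 20 to 49 reads 16.2%, with 50 to 99 reads 4.53%, with 100 to 199 reads 2.62%, with 200 to 499 reads 1.98%, and with 500 reads or more 1.19%. The shares of Ensembl features in the same classes were 30.0%, 11.9%, 6.63%, 3.51%, 1.69% and 0.57%. The unannotated share was thus higher in 4 of the 6 classes and lower in 2. If the Ensembl shares are weighted to the number of unannotated features in each class, 6.94% of the Ensembl features would be 2-fold apart, in place of 3.39%, beside the 7.97% of the unannotated features. Of the unannotated features compared 7.31% had 1 to 19 reads and 21.3% had 20 to 49 reads, against 3.85% and 6.07% of the Ensembl features. At 500 reads or more lay 19.8% and 51.8%. These shares are counts of features within 1 pair of libraries, the read classes were chosen after seeing the data, and no test of the difference between the sets was made.

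By smallest length, 9.57% of the 209 unannotated features under 200 bases were at least 2-fold apart, 11.3% of the 530 features of 200 to 499 bases, 10.6% of the 499 features of 500 to 999 bases, 4.67% of the 428 features of 1000 to 1999 bases and 3.52% of the 455 features of at least 2000 bases. The Ensembl shares in these classes were 16.0%, 7.59%, 4.12%, 2.54% and 1.31%. At 500 to 999 bases the median unannotated feature had 82 reads and the median Ensembl feature 263, and their median levels were 3.89 and 11.8 RPKM, so that features of like length still differed in reads.

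**Figure D3:**
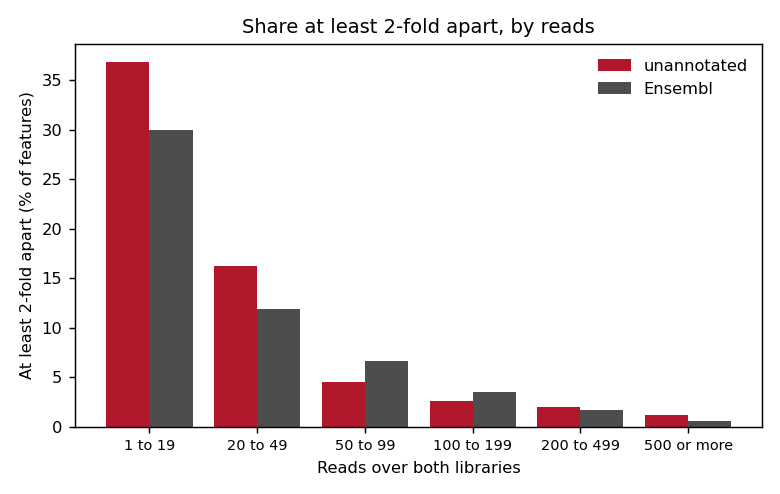
Share of features at least 2-fold apart between the libraries (vertical axis, percent of the features compared in each class) by the reads found over both libraries (horizontal axis), for unannotated and Ensembl features. The shares fall from 36.8% and 30.0% under 20 reads to 1.19% and 0.57% at 500 reads or more.

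By level the shares fell in the same way. Among unannotated features with a mean of 1 to 2 RPKM 16.4% were at least 2-fold apart, of 2 to 5 RPKM 7.08%, of 5 to 10 RPKM 3.58% and of 10 to 50 RPKM 0.962%, and of the 110 features with a mean of at least 50 RPKM 0 were, with log2 ratios between -0.56 and 0.78. The Ensembl shares in these classes were 11.6%, 5.47%, 1.91%, 0.61% and 0.681%. Features with a mean under 1 RPKM can pass the minimum only through the library in which they are higher, so that their share of 46.0% is no result. With an RPKM value of at least 1 required in both libraries, 68 of 1915 unannotated features (3.55%) and 238 of 13614 Ensembl features (1.75%) were 2-fold apart.

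Above a mean of 10 RPKM, 5 of 630 unannotated features were at least 2-fold apart (0.794%, against 0.628% of Ensembl features), and the 4 named next, Novel02129, Novel02128, Novel00791 and Novel00751, were chosen after their values were seen. Novel02129 had 47.3 RPKM in het and 18.7 RPKM in hom, a log2 ratio of -1.34 (95% counting interval -1.76 to -0.92). Novel02128, the number before it, had 16.3 and 6.53 RPKM and a log2 ratio of -1.32 (-2.02 to -0.67). Both were lower in hom by close to the same fold, 2.52 and 2.50. Novel00791 had 18.8 and 9.18 RPKM with 1491 and 655 reads, and Novel00751 had 13.0 and 27.5 RPKM with 635 and 1208 reads. The fifth, Novel00339, is described with the features whose interval lay beyond 2-fold.

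Counting error alone leaves wide intervals at these depths. The exact Clopper-Pearson 95% interval on the reads did not hold 0 for 443 of the 2121 unannotated features (20.9%) and for 26.5% of the Ensembl features, or 18.3% of the Ensembl features when weighted to the read classes, which turns the direction, and among features with at least 500 reads for 41.8% and 36.3%. The interval lay wholly beyond 2-fold for 17 unannotated features (0.802%), 7 lower and 10 higher in hom, against a background of 0.649% of all features and 0.626% of the Ensembl features. Weighted to the same read classes, the Ensembl share would be 0.894%. Of the 17 features 13 were under 1 RPKM in 1 library, all 7 lower ones in hom and 6 of the higher ones in het, and passed the minimum only through the library in which they were higher, so that the count of 17 is a description of the features and no support for a difference between the sets. With at least 1 RPKM in both libraries, an alternative added after seeing the data, 4 of 1915 unannotated features had such an interval (0.209%, 0 lower and 4 higher), against 0.309% of all features and 44 of 13614 Ensembl features (0.323%). The intervals cover counting error only, and the folds of features listed at 0 cover it for the library at 0 alone. Neither covers differences between animals or dissections. The 17 features had between 20 and 6931 reads, with a median of 71, and smallest lengths between 451 and 5636 bases. A mean of under 5 RPKM was found for 12 of them and a mean of at least 10 RPKM for 1.

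**Figure D4:**
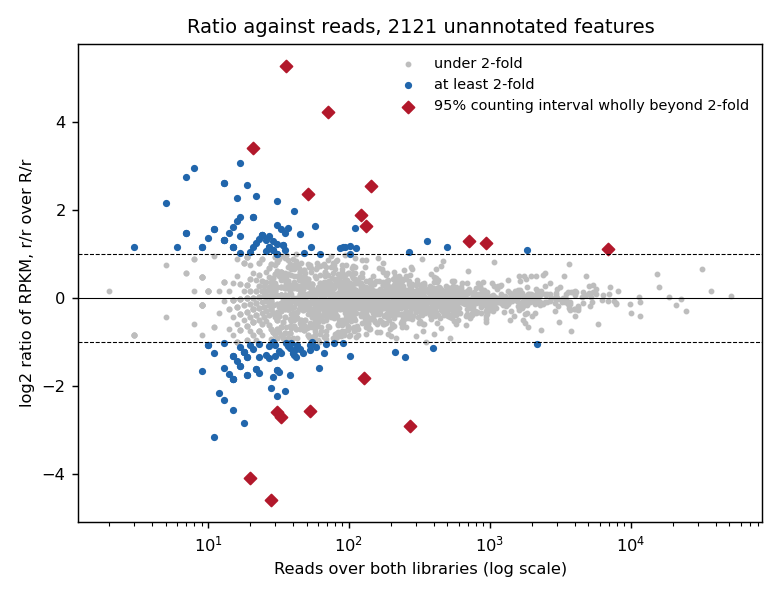
log2 ratio of RPKM, hom (r/r) over het (R/r) (vertical axis), against reads over both libraries (horizontal axis, log scale) for the 2121 unannotated features compared. Each point is a feature, dashed lines mark 2-fold, and diamonds are the 17 features with a 95% counting interval wholly beyond 2-fold. The points spread widest below 50 reads and narrow around a median of -0.04.

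Among the 7 features with an interval wholly beyond 2-fold that were lower in hom, Novel01761 had the most reads. It had 2.70 RPKM from 240 reads in het and 0.362 RPKM from 29 reads in hom, on a smallest length of 5615 bases. Its log2 ratio was -2.90 (95% counting interval -3.51 to -2.34), or 7.45-fold lower. Novel00265 had 2.62 RPKM from 102 reads and 0.742 RPKM from 26 reads, a log2 ratio of -1.82 (-2.50 to -1.19). Both features were covered by at least 26 reads in either library, at low levels.

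The other 5 of these lower features had at most 7 reads in hom. Novel01680 had 1.11 RPKM in het and 0.188 RPKM in hom, from 46 and 7 reads, a log2 ratio of -2.57 (95% counting interval -3.96 to -1.41). Novel01262 had 2.13 and 0.326 RPKM from 29 and 4 reads, and Novel01598 had 1.54 and 0.253 RPKM from 27 and 4 reads, with log2 ratios of -2.71 (-4.68 to -1.20) and -2.60 (-4.58 to -1.08). The lowest ratios of all unannotated features rested on 1 read in hom. Novel01505 had 2.54 RPKM from 27 reads in het and 0.104 RPKM from 1 read in hom, a log2 ratio of -4.60 (-9.96 to -2.00). Novel01415 had 1.77 RPKM from 19 reads and 0.104 RPKM from 1 read, a log2 ratio of -4.10 (-9.47 to -1.44).

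Among the 10 such features that were higher in hom, 3 had at least 221 reads in each library and lay just past 2-fold. Novel00339 had 26.4 RPKM from 2355 reads in het and 56.9 RPKM from 4576 reads in hom, on a smallest length of 5636 bases. Its log2 ratio of 1.11 (95% counting interval 1.04 to 1.18) had the narrowest interval of the 17. Novel01555 had 4.21 and 10.1 RPKM from 295 and 637 reads, a log2 ratio of 1.26 (1.06 to 1.47). Novel01746 had 3.78 and 9.27 RPKM from 221 and 489 reads, a log2 ratio of 1.30 (1.06 to 1.53). All 3 were above 1 RPKM in both libraries, and their levels in hom were 2.16 to 2.46 times those in het.

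The rest of these higher features had fewer reads. As they were chosen by an interval wholly beyond 2-fold, a feature with few reads could enter only with a larger ratio. Novel00753 had 3.08 RPKM in het and 9.57 RPKM in hom from 35 and 98 reads, a log2 ratio of 1.64 (95% counting interval 1.07 to 2.24). Novel00119 had 0.962 and 3.55 RPKM from 28 and 93 reads, a log2 ratio of 1.88 (1.26 to 2.55). Novel00738 had 0.601 and 3.51 RPKM from 23 and 121 reads, a log2 ratio of 2.55 (1.89 to 3.26). These 3 features had at least 23 reads in het, so that they were detected in both libraries. They were chosen by their intervals, and Novel00119 and Novel00738 passed the 1 RPKM minimum only through hom. Novel00577 had 0.407 and 2.11 RPKM from 9 and 42 reads, a log2 ratio of 2.37 (1.31 to 3.60).

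The 3 highest ratios belonged to features with at most 4 reads in het, which passed the 1 RPKM minimum only through hom. Their ratios are given as values. Novel01534 had 0.134 RPKM from 1 read in het and 5.20 RPKM from 35 reads in hom, a log2 ratio of 5.28 (95% counting interval 2.71 to 10.62). Novel01290 had 0.560 RPKM from 4 reads and 10.4 RPKM from 67 reads, a log2 ratio of 4.22 (2.79 to 6.13), the highest level in hom among features more than 4-fold higher there. Novel00197 had 0.170 RPKM from 2 reads and 1.79 RPKM from 19 reads, a log2 ratio of 3.40 (1.35 to 6.54).

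**Figure D5:**
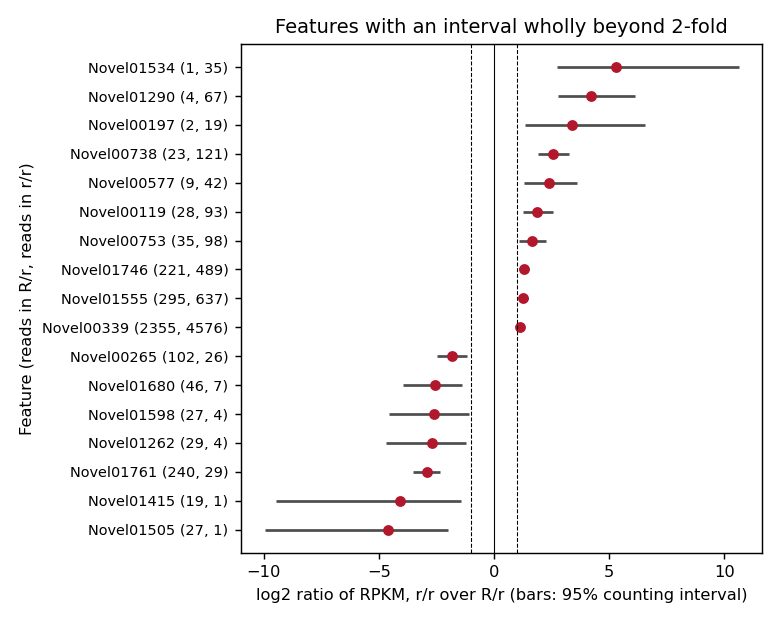
log2 ratio of RPKM, hom (r/r) over het (R/r) (horizontal axis), of the 17 unannotated features whose 95% counting interval lay wholly beyond 2-fold, with the reads in the R/r and r/r libraries beside each name (vertical axis). Points are the ratios, bars are exact Clopper-Pearson intervals, and dashed lines mark 2-fold. The 7 lower features run from -4.60 to -1.82 and the 10 higher ones from 1.11 to 5.28.

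Many of the extreme ratios rested on few reads. Of the 10 lowest and 10 highest ratios, 16 rested on under 50 reads over both libraries, and 6 of the 10 lowest and 4 of the 10 highest had an interval wholly beyond 2-fold. The other 4 of the lowest were Novel02240 (log2 ratio -3.17, with 10 and 1 reads), Novel01371 (-2.85, with 16 and 2 reads), Novel00441 (-2.55, with 13 and 2 reads) and Novel00472 (-2.31, with 11 and 2 reads). Among the highest, Novel01171 (3.06, with 2 and 15 reads), Novel00847 (2.57, with 3 and 16 reads), Novel00467 and Novel00011 (each 2.61, with 2 and 11 reads) had intervals above 0 that reached below 2-fold. Novel00170 (2.96, with 1 and 7 reads) and Novel01897 (2.74, with 1 and 6 reads) had intervals that reached no change, from -0.31 for Novel01897.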

How the data were processed

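The authors filtered the reads of 1 library per genotype, mapped them with TopHat2 2.0.7 (build Sscrofa10.2 in the processing notes), and deposited RPKM values per feature. The counting program, the gene annotation and the making of the unannotated features are not given in the sources used here. RPKM values were used as deposited, and 2 columns without headings, with values for 22 features, were not used.

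Library totals were chosen as the largest whole numbers that made exon lengths whole, for 66.0% of 3000 features used, and each feature above 0 (20862) received its smallest whole reads and length. Of 13 mitochondrial genes, 8 had the RefSeq length (Sscrofa11.1) and 11 the length or a whole fraction of it. The steps were tested on simulated data: of 20456 features above 0, 83.0% had exact reads, 100% had them up to a common factor, and 96.1% of the intervals held the true ratio.

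No test was possible with 1 library per genotype. The ratio is hom over het with no pseudocount added, with a minimum of 1 RPKM and a 2-fold threshold. Features named are the 10 highest by mean RPKM, the 10 lowest and 10 highest ratios, those with an interval wholly beyond 2-fold, and the 5 highest in each library among those listed at 0 in the other. Members, lists and alternatives were chosen with earlier results of these data known. Alternatives were pseudocounts, minimums, scalings, fold and detection thresholds. Neighbouring genes could not be named without positions. The software was scipy 1.17.1, numpy 2.4.6, pandas 2.3.3, matplotlib 3.10.9 and Python 3.11.15.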

Additional observations from a re-analysis of the deposited data

How the results depend on the processing

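No paired analysis was possible because each genotype had a single library. The number of unannotated features at least 2-fold apart, 169 (Ensembl 482), became 60 (257) with a pseudocount of 1, 68 (238) with RPKM of at least 1 in both libraries, 32 (146) and 14 (73) with minimums of 5 and 10, 433 (1338) at 1.5-fold and 29 (101) at 4-fold. It became 112 (318) and 21 (145) with at least 20 and 100 reads, chosen after seeing the data. With no minimum the Ensembl number became 1280 and the unannotated number 203, and weighted to the read classes, also chosen after seeing the data, the Ensembl share was 6.94%. The unannotated share stayed above the Ensembl share under each of these minimums, pseudocounts, scalings and thresholds. None of these settings made the reads of the 2 sets alike, so that no difference between the sets follows. By read class the unannotated share was higher in 4 classes. It was lower in 2, at 50 to 99 reads (4.53% against 6.63%) and 100 to 199 reads (2.62% against 3.51%). By mean RPKM it was higher in 5 classes and lower in 1, at 50 RPKM or more (0% against 0.681%). Minimums, thresholds and read limits act by construction. So does a pseudocount of 1, which draws each ratio towards no change, most at low RPKM. Between 33.3% (at least 100 reads, 7 lower and 14 higher) and 57.3% (1.5-fold) of the unannotated features called were lower in hom.

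The median log2 ratio of -0.036 became 0.01 when scaled by the median, which removed a shift of -0.046, and -0.071 when scaled to TPM. Features in 1 library alone, 15, numbered 209 at a detection threshold of RPKM 1 (9.09%, against 2.68% of Ensembl features, the reverse of 0.652% against 5.92% above 0). Intervals wholly beyond 2-fold, 17, numbered 6 with a minimum of 5 (0 lower, 6 higher), 4 with RPKM of at least 1 in both libraries (0 lower, 4 higher), 34 with the recovered reads multiplied by 2 and 63 with the reads multiplied by 5, the settings with 4 and 63 features being chosen after seeing the data. Of 185 values of 37 named features under pseudocounts and scalings, 13 left their counting interval (11 at pseudocount 1, 2 under scalings) and 0 of the called ones reversed. Depth limits features with few reads.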

Other observations

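Unannotated features with consecutive running numbers were also set side by side. Among 1958 pairs of consecutive numbers with both features compared, both were at least 2-fold apart in 17 pairs, of which 10 went in the same direction (4 lower, 6 higher in hom) and 7 in opposite directions. Single unannotated features passed the 2-fold threshold in 7.97% of cases, so that some such pairs would arise among unrelated neighbours too. How many was not worked out, and pairs of Ensembl features were not counted. Whether 17 of 1958 pairs exceeds that background was therefore not tested. The pairs named here were chosen after their values were seen. Novel00737 had 0.508 RPKM in het and 1.58 RPKM in hom, beside Novel00738 with 0.601 and 3.51 RPKM. Novel02001 and Novel02002 were both higher in hom, with log2 ratios of 1.58 and 1.83 from 37 and 21 reads over both libraries. In the other direction, Novel01289 had a log2 ratio of -1.26 from 11 reads, beside Novel01290 at 4.22. What the numbering follows is not stated, and whether such pairs are pieces of 1 transcript was not tested.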
